A study of Mus musculus with 24 samples.

Results

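The circadian clock genes described here are Arntl, Clock, Per1, Per2, Cry1, Cry2, Nr1d1, Nr1d2, Dbp and Bhlhe40, a set of 10 taken by name from the 18919 genes of the count table. All 10 were also among the 12889 genes of the normalized table, and all 10 were among the 13294 genes that passed the filter on low counts. They were followed in RNA from primary mouse microglia, the resident macrophages of the brain, prepared from pups of postnatal day 0. CD14-deficient cells (KO, strain B6.129S4-Cd14tm1Frm/J, a targeted allele carried in every cell) and wild-type cells (WT, C57BL/6) were each kept for 3 h with mouse fibronectin (FN) at 100 µg/ml, with Re-LPS at 0.1 or 10 ng/ml, or untreated. Each of the 8 groups had 3 libraries, which the series' design describes as independent cell preparations, and the study asked how the response to a bacterial and a matrix signal depends on CD14. LPS is the lipopolysaccharide of Gram-negative bacteria, FN is a glycoprotein of the extracellular matrix, and CD14 is the surface protein that hands LPS to the receptor TLR4. The labels give no time of day for the harvest, and every library is from a single time after stimulation.

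The circadian clock is a transcriptional feedback loop present in most cells. ARNTL (also called BMAL1) and CLOCK bind E-box sequences as a pair and switch on the Per, Cry, Nr1d, Dbp and Bhlhe40 genes. PER and CRY proteins then return to the nucleus and inhibit that pair, while the nuclear receptors REV-ERB-alpha and REV-ERB-beta, encoded by Nr1d1 and Nr1d2, repress Arntl. DBP carries the rhythm to output genes by binding D-box sequences, and BHLHE40 competes for the E-box. In mouse macrophages the REV-ERB receptors are also known as repressors of inflammatory genes.

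Libraries held 14939019 to 22143774 counts. Levels are given as CPM, counts scaled to a common library total, with library totals adjusted by TMM factors (trimmed mean of M-values) of 0.648 to 1.35. Cd14 stood at 2.138 to 6.372 CPM in the KO libraries and at 337.5 to 5329 CPM in the WT libraries, as the labels say. All 8 microglial markers were in the table, with a summed level of 4474 to 7324 CPM in KO libraries and 4721 to 7881 CPM in WT libraries. Among them, Csf1r stood at 1740 to 3732 CPM, Tmem119 at 4.374 to 44.18 CPM and P2ry12 at 2.711 to 24.56 CPM. The astrocyte list summed to 10.57 to 39.81 CPM. The neuron list summed to 0.9487 to 37.43 CPM in KO libraries and 2.709 to 15.82 CPM in WT libraries. The oligodendrocyte-lineage list summed to 153.3 to 253.1 CPM in KO libraries and 220.2 to 463.6 CPM in WT libraries, and its part in the genotype differences below was not tested. The list of 8 vascular and fibroblast markers summed to 19.65 to 31.37 CPM in KO cells with LPS 10 ng/ml, against 1.165 to 3.153 CPM in untreated KO cells, and to 11.52 to 24.71 CPM in WT cells with FN and 10.85 to 30.67 CPM in WT cells with LPS 10 ng/ml, against 1.657 to 3.206 CPM in untreated WT cells. Pdgfrb alone reached 29.26 CPM, while Cldn5, Col1a1, Col1a2, Col3a1 and Dcn were at 0 in some libraries and at most 0.6254 CPM in any, and the part of this list in the stimulus results was not tested. In 3 libraries, KO LPS 0.1 ng/ml replicate 2, WT LPS 0.1 ng/ml replicate 3 and WT LPS 10 ng/ml replicate 3, more than 2% of the counts were of the ribosomal precursor Rn45s, and each call of the 10 genes that changes without them is given both ways. In bulk RNA, fewer cells that express a gene and less RNA per cell cannot be told apart.

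Promoter sequence was available for 8 of the 10 genes, as 12 windows of the 250 bases before a RefSeq transcription start (GRCm38.p6, the mm10 build). Motifs of the clock were looked for on both strands: the E-box CACGTG bound by ARNTL and CLOCK, the D-box TTANGTAA bound by DBP, and the core AGGTCA bound by REV-ERB and ROR receptors. The windows below, of Per1, Cry1 and Nr1d2, are shown because they hold a match and belong to genes called in both genotypes, with every match to those motifs in capitals, where TGACCT is the receptor core on the other strand.
Per1, chr11:69098699-69098948, plus strand: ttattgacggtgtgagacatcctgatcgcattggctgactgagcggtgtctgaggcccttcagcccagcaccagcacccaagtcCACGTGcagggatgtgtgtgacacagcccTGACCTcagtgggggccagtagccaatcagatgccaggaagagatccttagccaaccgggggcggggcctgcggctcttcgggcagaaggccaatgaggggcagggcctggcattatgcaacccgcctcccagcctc
Cry1, chr10:85185055-85185304, minus strand: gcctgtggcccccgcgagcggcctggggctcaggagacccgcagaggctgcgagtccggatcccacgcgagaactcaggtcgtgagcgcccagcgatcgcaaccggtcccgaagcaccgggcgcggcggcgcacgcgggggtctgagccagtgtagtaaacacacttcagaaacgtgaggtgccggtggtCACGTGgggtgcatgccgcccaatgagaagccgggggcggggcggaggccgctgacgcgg
Nr1d2, chr14:18239107-18239356, minus strand: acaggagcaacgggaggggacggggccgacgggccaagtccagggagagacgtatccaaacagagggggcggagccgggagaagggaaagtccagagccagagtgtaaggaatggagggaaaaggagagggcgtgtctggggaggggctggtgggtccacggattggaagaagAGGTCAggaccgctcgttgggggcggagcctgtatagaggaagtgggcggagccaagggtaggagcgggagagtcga

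The E-box began 166 bases before the first start of Per1 and 60 bases before the start of Cry1, and 6.02% of 32851 mouse promoter windows of the same length hold one. The receptor core AGGTCA began 137 bases before the first start of Per1, 77 bases before the start of Nr1d2 and 119 bases before the third start of Clock. It is held by 14% of all windows. The window of the second Per1 start held neither motif. The Dbp window held none of the motifs. No window of the set held the D-box, found in 2.06% of all windows, or the cyclic AMP response element TGACGTCA, found in 1.55%. A loose form of the NF-kB site, which 45.8% of all windows hold, was present in the Per1 and Nr1d2 windows and absent from the Cry1 window. No E-box or receptor core in the 3 windows overlapped another motif. These matches describe letters in a window and not binding.

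Stimulated microglia had less RNA for several of the feedback and output genes and more for Cry1, although in WT cells with FN or LPS 10 ng/ml the rise of Cry1 turned to -0.11 and -0.32 with library totals alone. Per1, Dbp and Nr1d2 were lower with FN and with LPS 10 ng/ml in both genotypes, and Per2 and Cry2 were lower with both in WT cells. Scaled by TMM, Arntl did not pass the test against untreated cells with any stimulus. A gene is called changed where the adjusted p of edgeR's quasi-likelihood test, corrected over 13294 genes, was under 0.05. Log2 fold changes carry their standard error (SE).

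With LPS 0.1 ng/ml, no gene of the set was called in KO cells, where 0.722% of all genes were called higher and 0.00752% lower. There, 3 of the 10 and 577 of all 13294 genes had an unadjusted p under 0.05, and DESeq2 and limma also called 0 of the 10. With the replicate number as a block within genotype 2 were called there, beside 3.87% of all genes: Per1 (-0.50, adjusted p = 0.0204) and Dbp (-0.91, adjusted p = 0.00779). In WT cells at this dose Cry1 rose and Per1 and Dbp fell, beside 9.94% of all genes higher and 5.66% lower, and with the block 5 were called, beside 41.5% of all genes. With LPS 10 ng/ml, 2 were called higher and 3 lower in KO cells, beside 21.2% and 21.6% of all genes, and with the block 8 were called, beside 66%. In WT cells at this dose, 1 was called higher and 5 lower, beside 23.3% and 26.1% of all genes, and with the block 8 were called, beside 70.2%. With library totals alone, 9 were called lower and 0 higher in WT cells at this dose, beside 55.7% of all genes lower. With FN, 1 was called higher and 3 lower in KO cells, beside 9.23% and 7.17% of all genes, and with the block 8 were called, beside 44%. In WT cells with FN, 1 was called higher and 5 lower, beside 23.7% and 26.5% of all genes, and with the block 9 were called, beside 72%. With library totals alone, 9 were called lower and 0 higher in WT cells with FN, beside 55.6% of all genes lower.

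The median log2 fold change of the 10 genes was -0.47 in KO cells and -0.87 in WT cells with LPS 10 ng/ml, and -0.43 in KO cells and -0.77 in WT cells with FN. The median over all genes tested lay between -0.02 and 0.01 in these 4 comparisons. The typical size of a change, as the median of absolute log2 fold changes, was 1.08 for the 10 genes and 0.52 for all genes in KO cells with LPS 10 ng/ml, and 0.87 and 0.62 in WT cells with that dose. The comparisons within a genotype share their untreated libraries.

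**Figure D1:**
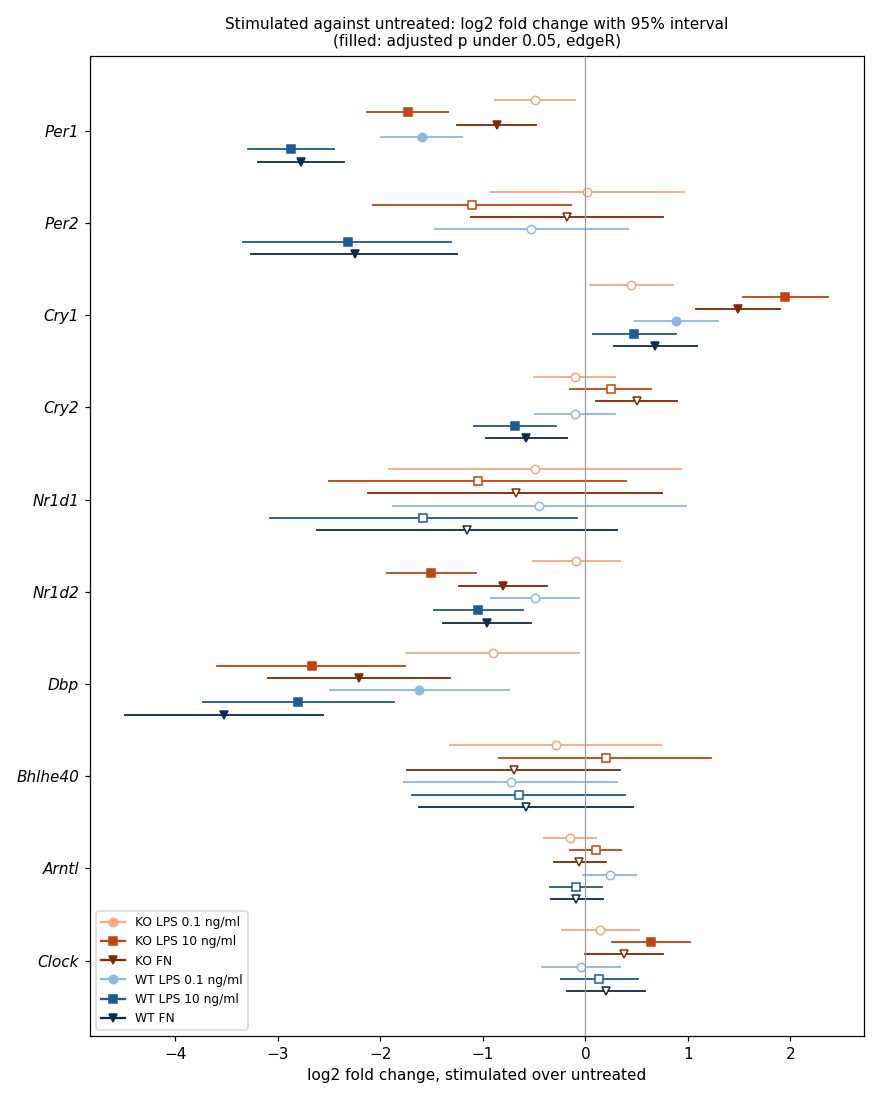
Log2 fold change of each clock gene, stimulated over untreated (x axis), with 95% intervals; filled symbols passed an adjusted p under 0.05 in edgeR, and colours and shapes mark genotype and stimulus. Per1 and Dbp lie left of 0 in all 6 comparisons and Cry1 lies right of 0, although with library totals alone Cry1 was at -0.32 in WT cells with LPS 10 ng/ml and -0.11 in WT cells with FN.

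Among the repressors of the loop, Per1 (chr11:69095217-69109960, plus strand, 24 exons merged over isoforms) had the widest range after Dbp, with group means 3.02 apart on the log2 scale. In KO cells, Per1 stood at 18.7, 18.2 and 21.2 CPM with FN, and over the LPS series at 32.9, 38.7 and 34.3 CPM untreated, 24.4, 23.6 and 27.4 CPM with 0.1 ng/ml and 10.4, 8.93 and 12.5 CPM with 10 ng/ml. In WT cells, Per1 stood at 4.53, 6.05 and 3.37 CPM with FN, and over the LPS series at 32.3, 34.5 and 28.7 CPM untreated, 10.5, 9.67 and 11.5 CPM with 0.1 ng/ml and 3.96, 5.54 and 3.49 CPM with 10 ng/ml. Every stimulated library lay below every untreated library of its genotype, and the libraries with 10 ng/ml lay below those with 0.1 ng/ml in both genotypes. WT cells with FN or with LPS 10 ng/ml were the lowest and overlapped each other, as did KO cells with 10 ng/ml and WT cells with 0.1 ng/ml, and the untreated groups of the 2 genotypes.

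Per1 fell by 0.86 ± 0.18 (log2, SE; adjusted p = 0.00278) in KO cells with FN and by 1.73 ± 0.19 (adjusted p = 7.12e-07) with LPS 10 ng/ml. Its change of -0.49 ± 0.18 with 0.1 ng/ml was not called without the block (adjusted p = 0.625). In WT cells Per1 fell by 2.77 ± 0.20 (adjusted p = 2.1e-09) with FN. It fell by 1.59 ± 0.19 (adjusted p = 7.13e-06) there with 0.1 ng/ml, and it fell by 2.87 ± 0.20 (adjusted p = 1.63e-09) with 10 ng/ml. LPS at 10 ng/ml thus left 0.301 of the untreated level in KO cells and 0.137 of it in WT cells. These 5 calls held in each of the 24 fits that left out 1 library.

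Per2 (chr1:91415982-91459324, minus strand), the partner repressor, had the lowest level of the set per kilobase of exon, 0.512 CPM per kilobase in untreated KO cells and 0.695 in untreated WT cells. In KO cells Per2 stood at 1.94, 3.01 and 3.00 CPM with FN, and over the LPS series at 2.51, 2.79 and 3.72 CPM untreated, 2.44, 2.90 and 3.77 CPM with 0.1 ng/ml and 0.65, 2.02 and 1.49 CPM with 10 ng/ml. In WT cells Per2 stood at 0.418, 1.53 and 0.606 CPM with FN, and over the LPS series at 3.64, 6.01 and 2.57 CPM untreated, 2.21, 3.35 and 2.92 CPM with 0.1 ng/ml and 0.743, 1.12 and 0.551 CPM with 10 ng/ml. FN-treated and untreated KO libraries overlapped, whereas FN-treated WT libraries all lay below untreated WT libraries. The lowest WT libraries rest on 6 counts, so these levels are coarse.

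Per2 fell by 2.25 ± 0.48 (adjusted p = 0.000619) in WT cells with FN and by 2.32 ± 0.48 (adjusted p = 0.000519) with LPS 10 ng/ml. In KO cells the change with FN was -0.18 ± 0.45 (95% interval -1.12 to 0.76), and that with LPS 10 ng/ml was -1.11 ± 0.46 (adjusted p = 0.0604). The change with LPS became a call with the replicate number as a block (-1.08, adjusted p = 0.000928), by DESeq2 (-1.06, adjusted p = 0.0437), by limma (-0.78, adjusted p = 0.0266) and with library totals alone (-1.55, adjusted p = 0.0158). It also became one without KO LPS 10 ng/ml replicate 2 (-1.48, adjusted p = 0.0306), without WT FN replicate 1 (-1.11, adjusted p = 0.0473) and without WT FN replicate 2 (-1.11, adjusted p = 0.033).

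**Figure D2:**
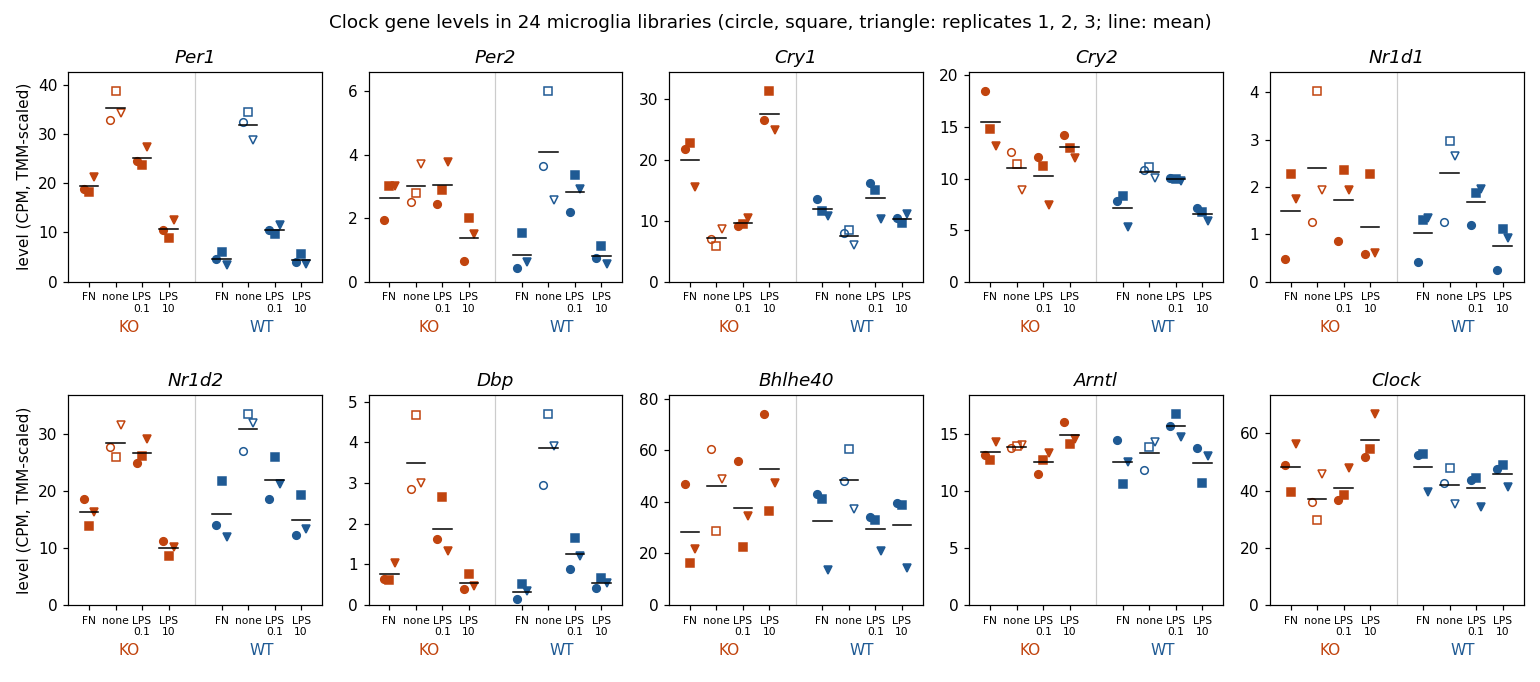
Level of each clock gene (y axis, TMM-scaled CPM) in all 24 libraries, KO groups left and WT groups right, with symbol shape for the replicate number, open symbols for untreated cells and a line at each group mean of 3 libraries. Per1 in WT cells with FN or LPS 10 ng/ml sits between 3.37 and 6.05 CPM, below all other groups, and Cry1 reaches 24.9 to 31.3 CPM in KO cells with LPS 10 ng/ml.

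Cry1 (chr10:85131700-85185064, minus strand), the cryptochrome that acts as a strong repressor of the ARNTL and CLOCK pair, moved against the Per genes. In KO cells Cry1 stood at 21.7, 22.8 and 15.5 CPM with FN, and over the LPS series at 6.94, 5.79 and 8.65 CPM untreated, 9.06, 9.50 and 10.5 CPM with 0.1 ng/ml and 26.5, 31.3 and 24.9 CPM with 10 ng/ml. In WT cells Cry1 stood at 13.5, 11.6 and 10.8 CPM with FN, and over the LPS series at 7.95, 8.42 and 6.02 CPM untreated, 16.2, 15 and 10.2 CPM with 0.1 ng/ml and 10.4, 9.58 and 11.1 CPM with 10 ng/ml. The KO libraries with 10 ng/ml lay above all others. In WT cells the libraries with 0.1 ng/ml overlapped those with 10 ng/ml, and no stimulated library overlapped the untreated ones in either genotype.

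Cry1 rose by 1.49 ± 0.19 (adjusted p = 2.53e-05) in KO cells with FN and by 1.95 ± 0.20 (3.87-fold, adjusted p = 2.79e-07) with LPS 10 ng/ml. Its change with 0.1 ng/ml was 0.44 ± 0.19 (adjusted p = 0.931). In WT cells Cry1 rose by 0.88 ± 0.19 (adjusted p = 0.00323) with 0.1 ng/ml, a call lost when only the compared groups were fitted (adjusted p = 0.0652). In WT cells with FN it rose by 0.68 ± 0.19 (adjusted p = 0.006), but it was at -0.11 with library totals alone. In WT cells with 10 ng/ml the difference was 0.47 ± 0.19 (adjusted p = 0.0495), which was -0.32 with library totals alone and 0.42 (adjusted p = 0.104) without the 3 Rn45s-rich libraries, and was not called in 18 of the 24 fits that left out 1 library (adjusted p up to 0.218).

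Cry2 (chr2:92403646-92434043, minus strand), the other cryptochrome, stood at 18.5, 14.8 and 13.2 CPM in KO cells with FN, and over the LPS series at 12.6, 11.4 and 8.93 CPM untreated, 12.1, 11.2 and 7.43 CPM with 0.1 ng/ml and 14.2, 13.0 and 12 CPM with 10 ng/ml. In WT cells Cry2 stood at 7.80, 8.31 and 5.32 CPM with FN, and over the LPS series at 10.8, 11.1 and 10.1 CPM untreated, 10.1, 10.0 and 9.72 CPM with 0.1 ng/ml and 7.18, 6.73 and 5.88 CPM with 10 ng/ml. Cry2 was thus lower in WT cells with FN and with 10 ng/ml than untreated, with no overlap, and not lower in KO cells.

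Cry2 fell by 0.58 ± 0.19 (adjusted p = 0.0161) in WT cells with FN and by 0.69 ± 0.19 (adjusted p = 0.00519) with LPS 10 ng/ml. Without WT FN replicate 3 that with FN was no longer a call (-0.40, adjusted p = 0.0993). In KO cells its change was 0.50 ± 0.19 (adjusted p = 0.0814) with FN and 0.25 ± 0.19 (adjusted p = 0.33) with 10 ng/ml, and both became calls once the replicate number was a block, at 0.49 (adjusted p = 0.000896) and 0.25 (adjusted p = 0.0475). The change with FN was also called by DESeq2 (0.50, adjusted p = 0.0386). KO replicate 1 was the highest and WT replicate 3 the lowest of its group for Cry2 in 4 of 4 groups.

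Of the REV-ERB receptors, Nr1d2 (chr14:18204054-18239127, minus strand) was the more abundant per kilobase of exon, at 5.25 CPM per kilobase in untreated KO cells and 5.71 in untreated WT cells, against 0.783 and 0.747 for Nr1d1. In KO cells Nr1d2 stood at 18.6, 13.9 and 16.3 CPM with FN, and over the LPS series at 27.8, 26.0 and 31.6 CPM untreated, 25.0, 26.1 and 29.2 CPM with 0.1 ng/ml and 11.2, 8.68 and 10.2 CPM with 10 ng/ml. In WT cells Nr1d2 stood at 14.1, 21.7 and 12 CPM with FN, and over the LPS series at 27.1, 33.5 and 32.0 CPM untreated, 18.6, 26.0 and 21.3 CPM with 0.1 ng/ml and 12.2, 19.3 and 13.3 CPM with 10 ng/ml. The 3 KO libraries with 10 ng/ml were the lowest of all 24, the FN-treated groups of both genotypes overlapped, and with 0.1 ng/ml the KO libraries overlapped untreated ones.

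Nr1d2 fell by 0.80 ± 0.20 (adjusted p = 0.01) in KO cells with FN and by 1.51 ± 0.21 (adjusted p = 1.09e-05) with LPS 10 ng/ml. In WT cells it fell by 0.96 ± 0.21 (adjusted p = 0.000668) with FN and by 1.05 ± 0.21 (adjusted p = 0.000309) with 10 ng/ml. The KO call with FN was lost without KO FN replicate 2 (-0.70, adjusted p = 0.0524). With 0.1 ng/ml the change was -0.09 ± 0.20 in KO cells and -0.49 ± 0.20 (adjusted p = 0.127) in WT cells, and the WT change became a call with the block (-0.50, adjusted p = 0.00158) and with library totals alone (-0.73, adjusted p = 0.0334).

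Nr1d1 (chr11:98767932-98775333, minus strand) stood at 0.471, 2.28 and 1.74 CPM in KO cells with FN, and over the LPS series at 1.25, 4.03 and 1.94 CPM untreated, 0.855, 2.36 and 1.93 CPM with 0.1 ng/ml and 0.585, 2.27 and 0.61 CPM with 10 ng/ml. In WT cells Nr1d1 stood at 0.418, 1.31 and 1.35 CPM with FN, and over the LPS series at 1.25, 2.98 and 2.66 CPM untreated, 1.2, 1.88 and 1.96 CPM with 0.1 ng/ml and 0.248, 1.12 and 0.918 CPM with 10 ng/ml. It varied most of the set within groups (SD 0.83 on the log2 scale), replicate 1 was the lowest of every group, and counts went down to 3 a library. Its changes with 10 ng/ml, -1.05 ± 0.69 in KO cells (adjusted p = 0.251) and -1.58 ± 0.71 in WT cells (adjusted p = 0.076), were not called. The WT changes were called with library totals alone. They were then -1.92 with FN (adjusted p = 0.0346) and -2.36 with 10 ng/ml (adjusted p = 0.0131).

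Between same-numbered libraries, Nr1d1 was lower in 3 of 3 pairs with FN and with LPS 10 ng/ml in both genotypes. With the replicate number as a block within genotype it was called in all 4, at -0.71 (adjusted p = 0.024) in KO cells with FN, -1.05 (adjusted p = 0.00156) in KO cells with 10 ng/ml, -1.17 (adjusted p = 0.00104) in WT cells with FN and -1.58 (adjusted p = 0.000148) in WT cells with 10 ng/ml. Without KO LPS 10 ng/ml replicate 2 and without the block, the KO change was -2.0 (adjusted p = 0.0464). Of the Nr1d1 exons, 263 bases (8.55%) overlap Thra on the opposite strand, and whether the counting used strand is not given in the sources used here. Thra, at 6 to 10.7 CPM by group mean, was not called with any stimulus.

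Dbp (chr7:45705088-45710203, plus strand), the output activator, had the widest range of the set, with group means 3.24 apart on the log2 scale. In KO cells Dbp stood at 0.628, 0.61 and 1.02 CPM with FN, and over the LPS series at 2.84, 4.66 and 2.99 CPM untreated, 1.62, 2.66 and 1.32 CPM with 0.1 ng/ml and 0.39, 0.757 and 0.474 CPM with 10 ng/ml. In WT cells Dbp stood at 0.139, 0.51 and 0.337 CPM with FN, and over the LPS series at 2.96, 4.69 and 3.90 CPM untreated, 0.882, 1.65 and 1.21 CPM with 0.1 ng/ml and 0.413, 0.673 and 0.551 CPM with 10 ng/ml. Every stimulated library was below every untreated library of its genotype, and the groups with 10 ng/ml overlapped between genotypes.

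Dbp fell by 2.21 ± 0.42 (adjusted p = 0.00111) in KO cells with FN and by 2.67 ± 0.44 (adjusted p = 6.39e-05) with LPS 10 ng/ml. In WT cells Dbp fell by 3.53 ± 0.46 (adjusted p = 3.35e-06) with FN, by 1.62 ± 0.41 (adjusted p = 0.0101) with 0.1 ng/ml and by 2.8 ± 0.44 (adjusted p = 3.17e-05) with 10 ng/ml. The WT call with 0.1 ng/ml was lost without WT LPS 0.1 ng/ml replicate 1 (-1.43, adjusted p = 0.068). The lowest Dbp library, of WT cells with FN, held 2 counts. Of the Dbp exons, 539 bases (18%) overlap Sphk2 on the opposite strand. Sphk2, at 60.5 to 93.8 CPM by group mean, changed by -0.13 ± 0.13 in KO cells (adjusted p = 0.497) and fell by 0.40 ± 0.13 in WT cells (adjusted p = 0.0175) with 10 ng/ml. With FN Sphk2 changed by 0.16 ± 0.13 in KO cells (adjusted p = 0.522) and by -0.33 ± 0.13 in WT cells (adjusted p = 0.0457).

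Bhlhe40 (chr6:108660629-108666925, plus strand), also called DEC1, was the most abundant of the set per kilobase of exon, at 9.78 CPM per kilobase in untreated KO cells and 10.3 in untreated WT cells. In KO cells Bhlhe40 stood at 47.1, 16.2 and 21.6 CPM with FN, and over the LPS series at 60.6, 28.7 and 48.7 CPM untreated, 55.9, 22.6 and 34.4 CPM with 0.1 ng/ml and 74.0, 36.6 and 47.5 CPM with 10 ng/ml. In WT cells Bhlhe40 stood at 42.9, 41.0 and 13.7 CPM with FN, and over the LPS series at 47.9, 60.5 and 37.4 CPM untreated, 34.3, 32.8 and 20.8 CPM with 0.1 ng/ml and 39.7, 38.8 and 14.2 CPM with 10 ng/ml. KO replicate 1 was the highest of its group in 4 of 4 KO groups and WT replicate 3 the lowest in 4 of 4 WT groups. Scaled by TMM and without the block, no stimulus passed the test for Bhlhe40 in either genotype. Bhlhe40 was called in WT cells with library totals alone. It was then at -1.38 with FN (adjusted p = 0.0136) and -1.44 with 10 ng/ml (adjusted p = 0.0103).

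With the replicate number as a block, Bhlhe40 was called lower in KO cells with FN (-0.77, adjusted p = 0.00419) and in WT cells with FN (-0.69, adjusted p = 0.00493). The WT changes with LPS became calls too, at -0.75 for 0.1 ng/ml (adjusted p = 0.0055) and -0.74 for 10 ng/ml (adjusted p = 0.0033). In KO cells with 10 ng/ml, Bhlhe40 was higher in 2 of 3 same-numbered pairs and lower in 1, with a change of 0.20 ± 0.49 (95% interval -0.84 to 1.23).

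Of the activators, Arntl (chr7:113207465-113314126, plus strand) had group means of 12.5 to 15.7 CPM, 0.33 apart on the log2 scale, the narrowest of the set. Its changes against untreated cells ran from -0.15 ± 0.12 in KO cells to 0.24 ± 0.12 in WT cells, both with LPS 0.1 ng/ml, and none was called. Arntl was called lower in both genotypes with library totals alone. In WT cells it was then at -0.89 with FN (adjusted p = 3.32e-06) and -0.90 with 10 ng/ml (adjusted p = 2.81e-06), where the median of all genes moved by -0.78 and -0.80. In KO cells it was then at -0.40 with 10 ng/ml (adjusted p = 0.00941), where that median moved by -0.49. In KO cells with LPS 10 ng/ml Arntl stood at 16, 14.1 and 14.5 CPM, against 13.7, 13.9 and 14 CPM untreated, and in WT cells with that dose at 13.7, 10.7 and 13.0 CPM, against 11.8, 13.8 and 14.3 CPM untreated. The 95% intervals of both changes with TMM, -0.15 to 0.35 in KO cells and -0.35 to 0.16 in WT cells, exclude a change as large as that of Per1.

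Clock (chr5:76209868-76304792, minus strand), the partner of ARNTL, rose in KO cells with LPS 10 ng/ml, where it stood at 51.7, 54.5 and 66.7 CPM, against 35.9, 29.7 and 45.7 CPM in untreated KO cells. That change was 0.64 ± 0.18 (adjusted p = 0.00792), and it was lost with library totals alone (0.16, adjusted p = 0.472) and without KO untreated replicate 2 (0.50, adjusted p = 0.0536). With FN, Clock stood at 49.1, 39.6 and 56.4 CPM in KO cells, a change of 0.38 ± 0.18 (adjusted p = 0.178) that the block turned into a call (0.39, adjusted p = 0.000396). In WT cells Clock stood at 47.7, 48.9 and 41.2 CPM with 10 ng/ml, against 42.6, 47.8 and 35.2 CPM untreated, a change of 0.13 ± 0.18 that was not called. With FN the WT change was 0.20 ± 0.18, called with the block (0.20, adjusted p = 0.0252) and, with the opposite sign, with library totals alone (-0.58, adjusted p = 0.0057).

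The comparison of KO with WT cells asks whether CD14 shapes these levels. Untreated KO and WT cells did not differ in any of the 10 genes by edgeR, DESeq2 or limma, with 0 at an unadjusted p under 0.05, and 0.00752% of all genes were called, or 1 gene. The widest of the 10 differences was that of Per2, -0.44 ± 0.45 with a 95% interval of -1.38 to 0.50. After stimulation, some repressors were called higher in KO cells: Per1 with all 3 stimuli, Cry1 and Cry2 with FN and with LPS 10 ng/ml, and Per2 with FN. The repressors Nr1d1, Nr1d2 and Bhlhe40 did not pass the main test with any stimulus.

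With LPS 0.1 ng/ml, only Per1 was called among the 10, higher in KO cells by 1.25 ± 0.19 (2.38-fold, adjusted p = 0.000201), where 9.3% of all genes were called. Cry1 was lower in KO cells by 0.51 ± 0.19 (adjusted p = 0.108), which became a call without WT LPS 0.1 ng/ml replicate 3, one of the Rn45s-rich libraries (-0.69, adjusted p = 0.0201). Arntl was at -0.33 ± 0.12 (adjusted p = 0.104) there, with no overlap between the genotypes, and DESeq2 called it (-0.33, adjusted p = 0.045). With LPS 10 ng/ml, 3 were called, all higher in KO cells, beside 15.9% of all genes in either direction. They were Per1 by 1.29 ± 0.19 (adjusted p = 0.000136), Cry1 by 1.41 ± 0.19 (adjusted p = 7.1e-05) and Cry2 by 0.98 ± 0.19 (adjusted p = 0.00146). Dbp, with 0.39, 0.757 and 0.474 CPM in KO cells and 0.413, 0.673 and 0.551 CPM in WT cells, differed by -0.01 ± 0.44 there. Nr1d2 was at -0.58 ± 0.21 (adjusted p = 0.0649), and it became a call by DESeq2 (-0.60, adjusted p = 0.0405) and in 3 of the 24 fits that left out 1 library (adjusted p down to 0.0312).

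With FN, 5 were called, all higher in KO cells, beside 38.6% of all genes. Per1 was higher by 2.06 ± 0.19 (4.17-fold, adjusted p = 1.6e-07), Cry2 by 1.12 ± 0.19 (adjusted p = 0.000119) and Cry1 by 0.74 ± 0.19 (adjusted p = 0.0045). Per2 was higher by 1.63 ± 0.47 (adjusted p = 0.00983), with the call lost without WT FN replicate 1 (1.31, adjusted p = 0.0554) and when only the compared groups were fitted (1.65, adjusted p = 0.0704). Dbp was higher by 1.18 ± 0.44 (adjusted p = 0.0429), which missed the threshold in 4 of the 24 fits that left out 1 library (adjusted p up to 0.187) and without the 3 Rn45s-rich libraries (adjusted p = 0.0527). It was also lost with RLE scaling, no filter, the 5 CPM filter, the compared groups alone, DESeq2 and limma (adjusted p = 0.0558 to 0.179). Nr1d2 differed by 0.03 ± 0.20 (95% interval -0.39 to 0.46), and Clock by 0.00 ± 0.18. With library totals alone Nr1d2 (0.67, adjusted p = 0.018), Clock (0.66, adjusted p = 0.00283) and Arntl (0.76, adjusted p = 2.94e-05) were called higher in KO cells. The median of all genes then moved by 0.66.

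Over the 10 genes the median difference of KO minus WT cells was 0.69 with LPS 10 ng/ml and 0.64 with FN, against 0.03 and 0.02 over all genes.

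Whether the response itself differed was tested as the interaction, the KO response minus the WT response on the log2 scale. With LPS 0.1 ng/ml only Per1 was called, at 1.10 ± 0.26 (adjusted p = 0.0284), beside 2.29% of all genes, and 8 of the 24 fits that left out 1 library lost the call (adjusted p up to 0.108). With LPS 10 ng/ml, 3 were called, beside 5.28% of all genes, and 6 under the block, beside 21.7%. Cry1 had the largest, 1.48 ± 0.27 (adjusted p = 0.00327), followed by Per1 with 1.14 ± 0.26 (adjusted p = 0.0145) and Cry2 with 0.94 ± 0.27 (adjusted p = 0.0482). Without the 3 Rn45s-rich libraries, Per1 was at 1.01 (adjusted p = 0.0541) and Cry2 at 0.86 (adjusted p = 0.136), and without KO LPS 10 ng/ml replicate 3 Per1 was at 1.01 (adjusted p = 0.0509). The Cry2 call was lost in 17 of the 24 fits that left out 1 library and with no filter (0.96, adjusted p = 0.0646). The block added Clock (0.51, adjusted p = 0.00232), Per2 (1.23, adjusted p = 0.039) and Bhlhe40 (0.94, adjusted p = 0.022).

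With FN, 4 interactions were called, beside 23.1% of all genes. Per2 was at 2.07 ± 0.65 (adjusted p = 0.0263), Per1 at 1.91 ± 0.26 (adjusted p = 3.54e-05), Cry2 at 1.07 ± 0.27 (adjusted p = 0.00621) and Cry1 at 0.81 ± 0.27 (adjusted p = 0.037). For Per1 this means a smaller fall in KO cells, for Cry2 a change of 0.50 in KO cells and -0.58 in WT cells, and for Cry1 a larger rise in KO cells, although the WT change of Cry1 was -0.11 with library totals alone. Leaving out 1 library ended the Per2 call in 7 of 24 fits (adjusted p up to 0.0856) and the Cry1 call in 8 (adjusted p up to 0.102), and none of the Per1 and Cry2 calls. Fitting the compared groups alone ended the Per2 call (adjusted p = 0.0508), and that setting, RLE scaling and no filter ended the Cry1 call (adjusted p = 0.0503 to 0.0554). Dbp, at 1.31 ± 0.59 (adjusted p = 0.13), was called with the block (1.28, adjusted p = 0.0163), beside 49.3% of all genes, and with library totals alone (1.90, adjusted p = 0.0283). Nr1d2 (0.15 ± 0.29) and Arntl (0.03 ± 0.17) were not called by the main test. Arntl (0.69, adjusted p = 0.0032) and Clock (0.83, adjusted p = 0.0103) were called with library totals alone, where the median of all genes moved by 0.64.

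**Figure D3:**
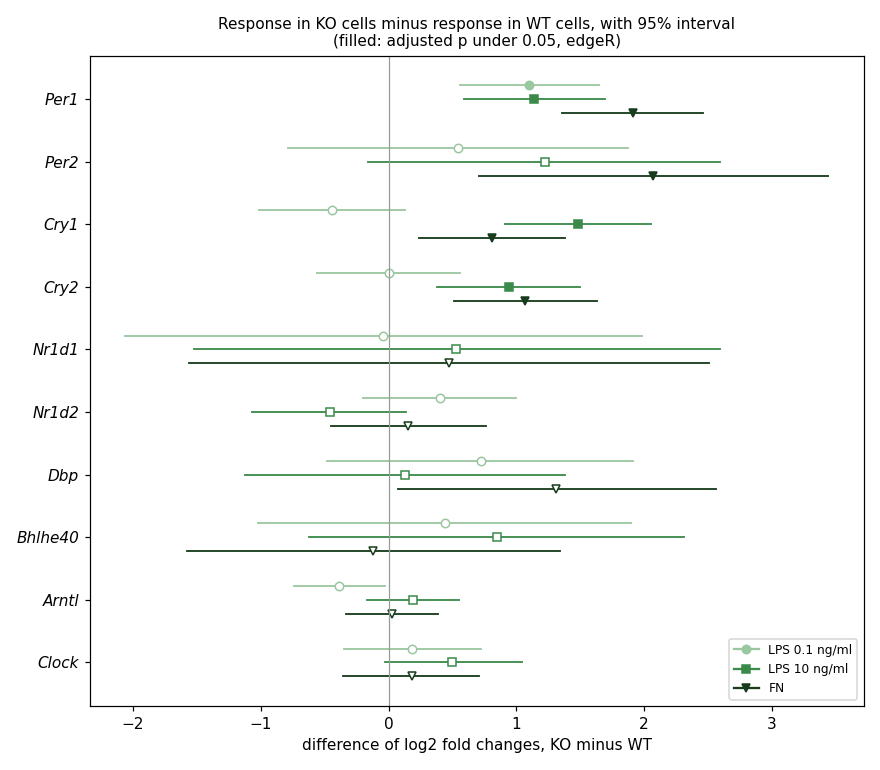
Difference of the log2 fold changes of each clock gene, KO response minus WT response (x axis), with 95% intervals, by stimulus; filled symbols passed an adjusted p under 0.05 in edgeR. Per1 is to the right of 0 with all 3 stimuli, at 1.10, 1.14 and 1.91, while Nr1d1 and Bhlhe40 have intervals that span 0.

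Between the LPS doses, called genes went both ways in KO cells and were all lower at 10 ng/ml in WT cells. LPS 10 ng/ml against 0.1 ng/ml gave 5 calls in KO cells, beside 36.7% of all genes, and 6 in WT cells, beside 32.2% of all genes. In KO cells Cry1 (1.51 ± 0.19, adjusted p = 7.6e-06) and Clock (0.49 ± 0.18, adjusted p = 0.0398) were higher at 10 ng/ml, and Per1 (-1.24 ± 0.19, adjusted p = 4.01e-05), Nr1d2 (-1.42 ± 0.21, adjusted p = 3.01e-05) and Dbp (-1.77 ± 0.43, adjusted p = 0.00292) were lower. With the block 8 were called in KO cells, beside 62.8% of all genes, adding Per2 (-1.11, adjusted p = 0.000868), Cry2 (0.36, adjusted p = 0.00738) and Bhlhe40 (0.52, adjusted p = 0.0253). The Clock call was lost in 4 of 24 fits that left out 1 library, with no filter, with the compared groups alone, with library totals alone (adjusted p = 0.0561 to 0.756) and without the 3 Rn45s-rich libraries (0.44, adjusted p = 0.119). DESeq2 also called Arntl in KO cells (0.29, adjusted p = 0.0433), where edgeR gave 0.25 ± 0.12 (adjusted p = 0.122). It called Per2 there as well (-1.07, adjusted p = 0.0462).

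In WT cells all 6 were lower at 10 ng/ml. Per1 (-1.28 ± 0.19, adjusted p = 5.49e-05) held in every fit that left out 1 library, and so did Per2 (-1.8 ± 0.48, adjusted p = 0.00718). Cry2 (-0.59 ± 0.19, adjusted p = 0.0231), Dbp (-1.18 ± 0.43, adjusted p = 0.0433), Arntl (-0.33 ± 0.12, adjusted p = 0.0439) and Nr1d2 (-0.56 ± 0.20, adjusted p = 0.0449) each lost the call in 4 to 14 of those 24 fits, and Arntl, Nr1d2 and Dbp also with RLE scaling and DESeq2 (adjusted p = 0.0585 to 0.0918). Without the 3 Rn45s-rich libraries only Per1 was called, with Arntl at -0.41, Per2 at -1.57, Cry2 at -0.53, Nr1d2 at -0.50 and Dbp at -1.21 (adjusted p = 0.0922 to 0.242). Cry1 was at -0.41 ± 0.19 (adjusted p = 0.116), called at -0.59 (adjusted p = 0.0322) without WT LPS 0.1 ng/ml replicate 3, and Nr1d1 was called with the block (-1.15, adjusted p = 0.00595), beside 57% of all genes.

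FN at 100 µg/ml and LPS at 10 ng/ml gave levels in WT cells that the test did not separate. None of the 10 genes and 0% of all genes were called between them by edgeR, DESeq2 or limma, and 0 of the 10 and 105 of all genes had an unadjusted p under 0.05. The difference of FN minus LPS for Per1 was 0.10 ± 0.19 (95% interval -0.30 to 0.50) and that for Cry1 was 0.21 ± 0.19 (95% interval -0.19 to 0.61), while the interval of Dbp, -1.68 to 0.23, is wide. In KO cells, 2 were called, beside 17% of all genes: with FN Per1 was higher by 0.87 ± 0.19 (adjusted p = 0.00314) and Nr1d2 by 0.70 ± 0.21 (adjusted p = 0.024) than with LPS. The Nr1d2 call was lost in 4 of 24 fits that left out 1 library (adjusted p up to 0.0969) and with the compared groups alone (adjusted p = 0.0546). With the block 6 were called in KO cells, beside 44.8% of all genes, adding Per2 (0.91, adjusted p = 0.00773), Cry1 (-0.46, adjusted p = 0.02), Clock (-0.26, adjusted p = 0.00896) and Bhlhe40 (-0.97, adjusted p = 0.000851).

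The wider clock was followed with a list of 20 further genes of the loop and its regulation, of which 19 were in the table and 17 passed the filter. With LPS 10 ng/ml, Per3, Tef, Usp2, Bhlhe41, Rora and Csnk1e fell and Ccrn4l and Fbxw11 rose in both genotypes. Fbxw11 encodes an F-box protein that targets PER proteins for degradation. In KO cells, none was called with LPS 0.1 ng/ml, where 4 of the 17 and 577 of all genes had an unadjusted p under 0.05, 4 were higher and 6 lower with 10 ng/ml (21.2% and 21.6% of all genes), and 3 were higher and 5 lower with FN (9.23% and 7.17%). In WT cells, 2 were higher and 4 lower with LPS 0.1 ng/ml (9.94% and 5.66% of all genes), 5 higher and 7 lower with 10 ng/ml (23.3% and 26.1%), and 5 higher and 7 lower with FN (23.7% and 26.5%).

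Per3, the third period gene, followed Per1. In KO cells Per3 stood at 8.48, 7.93 and 6.42 CPM with FN, and over the LPS series at 16.2, 13.9 and 12.1 CPM untreated, 12.7, 11.2 and 11 CPM with 0.1 ng/ml and 3.90, 4.14 and 4.07 CPM with 10 ng/ml. In WT cells Per3 stood at 2.09, 2.55 and 1.82 CPM with FN, and over the LPS series at 12.8, 14.9 and 13.1 CPM untreated, 5.42, 6.48 and 8.21 CPM with 0.1 ng/ml and 1.4, 2.1 and 2.94 CPM with 10 ng/ml. It fell by 0.88 ± 0.21 (adjusted p = 0.00584) in KO cells and by 2.66 ± 0.22 (adjusted p = 1.43e-08) in WT cells with FN. The interaction was 1.77 ± 0.30 (adjusted p = 0.000243). Bhlhe41 (DEC2), the close relative of Bhlhe40, fell by 2.39 ± 0.55 (adjusted p = 0.00169) in KO cells and by 4.18 ± 0.61 (adjusted p = 1.29e-05) in WT cells with LPS 10 ng/ml. Bhlhe41 changed by -0.95 in KO cells with FN, a change called with the block (-1.09, adjusted p = 0.00818).

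The genes that share the D-box with Dbp parted. Tef, an activator of the same family, stood at 24.7, 27.7 and 26.4 CPM in KO cells with FN, against 44.8, 51.6 and 47.3 CPM untreated, and at 8.22, 12.2 and 6.40 CPM in WT cells with FN, against 46.6, 61.5 and 52.3 CPM untreated. With FN Tef fell by 0.87 ± 0.23 (adjusted p = 0.0148) in KO cells and fell by 2.58 ± 0.25 (adjusted p = 7.89e-08) in WT cells. The interaction was 1.71 ± 0.33 (adjusted p = 0.000915). Tef also fell by 2.0 ± 0.24 (adjusted p = 2.38e-06) in KO cells and fell by 2.47 ± 0.25 (adjusted p = 1.31e-07) in WT cells with LPS 10 ng/ml. The KO call with FN was lost without KO FN replicate 1 (-0.83, adjusted p = 0.0583) and without KO untreated replicate 2 (-0.81, adjusted p = 0.0545). Hlf, the remaining activator, was at most 0.673 CPM in any library and did not pass the filter.

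Nfil3, also called E4BP4, is the repressor of D-box genes. With FN, Nfil3 stood at 14.8, 10.9 and 9.36 CPM in KO cells and at 68.8, 69.1 and 111 CPM in WT cells. Untreated cells had 23.1, 22.9 and 24.3 CPM in KO libraries and 18.5, 14.2 and 16.9 CPM in WT libraries. Nfil3 thus fell by 1.0 ± 0.25 (adjusted p = 0.00761) in KO cells and rose by 2.33 ± 0.25 (adjusted p = 3.62e-07) in WT cells with FN. The interaction was -3.33 ± 0.35 (adjusted p = 2.43e-06). Its change with LPS 10 ng/ml was 0.27 ± 0.24 in KO cells (adjusted p = 0.418) and 2.25 ± 0.25 (adjusted p = 5.43e-07) in WT cells. The interaction was -1.98 ± 0.35 (adjusted p = 0.00232). Dbp was lower in all these groups, and a link between Nfil3 and Dbp was not tested.

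Rora, a nuclear receptor that activates Arntl from the element the REV-ERBs occupy, stood at 0.91, 0.656 and 1.36 CPM in KO cells with LPS 10 ng/ml, against 3.91, 2.75 and 3.55 CPM untreated, and at 0.248, 2.02 and 0.735 CPM in WT cells with that dose, against 2.65, 5.40 and 2.76 CPM untreated. It fell by 1.8 ± 0.57 (adjusted p = 0.0154) in KO cells and by 1.83 ± 0.57 (adjusted p = 0.0121) in WT cells with that dose. The KO call was lost without KO LPS 10 ng/ml replicate 2 (-1.58, adjusted p = 0.0632), and the WT call without WT LPS 10 ng/ml replicate 1 (-1.38, adjusted p = 0.0519), without replicate 3 (-1.66, adjusted p = 0.0512) and without WT untreated replicate 2 (-1.42, adjusted p = 0.0674). The WT call was also lost without the 3 Rn45s-rich libraries (-1.66, adjusted p = 0.0692) and with the compared groups alone (adjusted p = 0.0742). In KO cells with FN, Rora was called with the block (-1.19, adjusted p = 0.000971) and with the compared groups alone (-1.20, adjusted p = 0.0411). Rorb was at most 0.443 CPM and did not pass the filter. Usp2, a deubiquitinase with a rhythmic transcript, fell by 3.41 ± 0.29 (adjusted p = 3.46e-08) in KO cells and fell by 3.69 ± 0.30 (adjusted p = 8.53e-09) in WT cells with LPS 10 ng/ml. With FN it fell by 1.66 ± 0.27 in KO cells (adjusted p = 0.000221) and fell by 3.91 ± 0.30 in WT cells (adjusted p = 4.68e-09). The interaction was 2.25 ± 0.38 (adjusted p = 0.000257). Ccrn4l, the older symbol of the deadenylase-related gene Noct (nocturnin), rose by 3.57 ± 0.35 (adjusted p = 1.9e-07) in KO cells and by 3.94 ± 0.36 (adjusted p = 3.49e-08) in WT cells with LPS 10 ng/ml. With FN Ccrn4l rose by 2.06 ± 0.33 in KO cells and 4.08 ± 0.36 in WT cells, an interaction of -2.03 ± 0.45 (adjusted p = 0.00283).

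**Figure D4:**
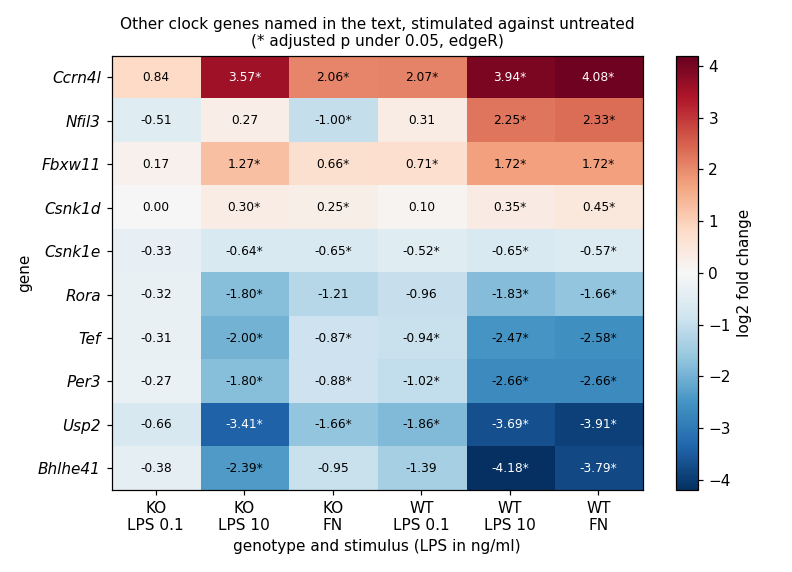
Log2 fold change of the 10 further clock genes named in the text (rows) for each genotype and stimulus against untreated cells (columns, LPS in ng/ml), with an asterisk at an adjusted p under 0.05 in edgeR. Nfil3 is at -1.0 in KO cells and 2.33 in WT cells with FN, and Csnk1d, at 0.30 in KO and 0.35 in WT cells with LPS 10 ng/ml, turned to -0.20 and -0.45 with library totals alone.

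Profiles across the 24 libraries were compared for the 7 genes of the set whose group means span at least 1 on the log2 scale. Likeness was the root-mean-square difference of centred log2 CPM over all genes with a mean of at least 5 CPM, and a smaller value is a closer profile. The closest to Per1 were Flcn (0.21), 1700113A16Rik (0.24) and Klhl21 (0.26), the closest to Per2 was Trim24 (0.33), and the closest to Cry1 were Slc39a13 (0.29), Osbpl3 (0.31) and Bahd1 (0.32). Cry2 was closest to Map3k3 (0.21), Nr1d2 to Vps13c (0.17) and Hip1 (0.18), Dbp to Amz1 (0.45) and Nr1d1 to Plxna3 (0.45). No gene of the set was among the 3 closest to another, but Per2, Nr1d1 and Dbp lay below 5 CPM and so could not be listed. These are descriptions over libraries that share groups.

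How libraries were scaled moved every change by the same amount and so turned only small ones. Another scaling that assumes most genes are unchanged, the relative log expression of DESeq (RLE), moved the median of all genes by at most 0.07. Scaling by library totals alone moved it by -0.49 in KO cells and -0.80 in WT cells with LPS 10 ng/ml, by -0.14 in KO cells and -0.78 in WT cells with FN, and by -0.24 in WT cells with LPS 0.1 ng/ml, and every change is to be read against that shift. With library totals alone Per1 was below the median of all genes. Cry1 in WT cells with LPS 10 ng/ml, at -0.32, was above it. A shift shared by all genes cannot change this order, so the order is no check of either change. The share of calls over all genes that were higher was 21.1% with library totals, against 49.5% with TMM, in KO cells with LPS 10 ng/ml, and 16.3% against 47.1% in WT cells. With FN it was 43.2% against 56.3% in KO cells and 16.8% against 47.3% in WT cells, and in WT cells with LPS 0.1 ng/ml 36.7% against 63.7%. Between KO and WT cells it was 52.1% against 31.9% with LPS 0.1 ng/ml, 84.2% against 50.6% with 10 ng/ml and 86% against 54.5% with FN, and for the interactions 77.8% against 37.2% with LPS 10 ng/ml and 86.1% against 51% with FN. Between doses it was 20.6% against 49.8% in KO cells and 12.1% against 45.9% in WT cells, and for FN against LPS in KO cells 82.3% against 44.5%.

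**Figure D5:**
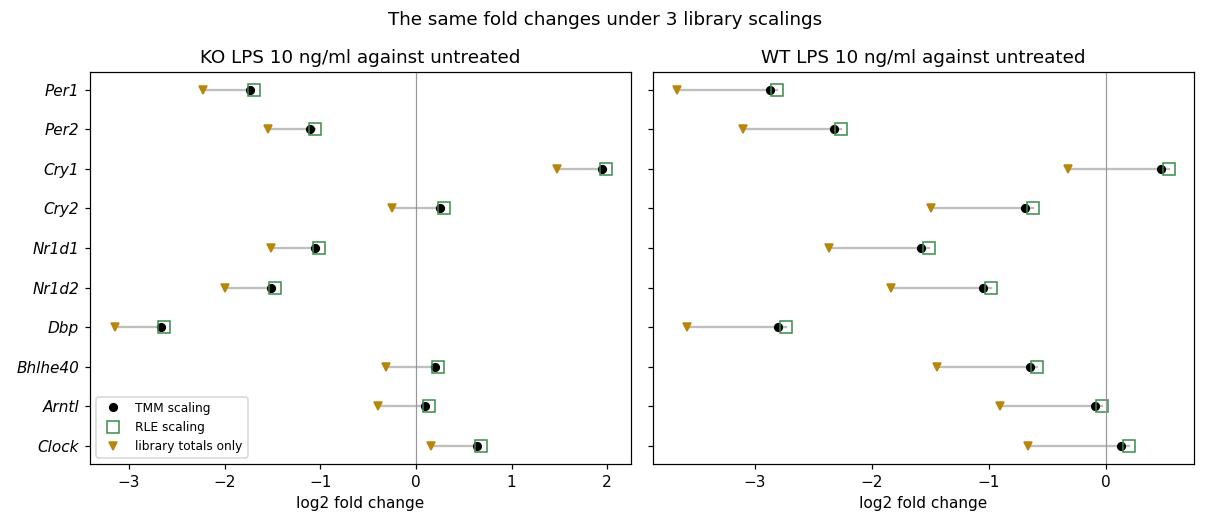
Log2 fold change with LPS 10 ng/ml (x axis) in KO cells (left) and WT cells (right) under TMM, RLE and library totals alone. With library totals every gene shifts to the left, Cry1 crosses 0 in WT cells, at -0.32, but not in KO cells, and Arntl in KO cells (-0.40) and Clock in WT cells (-0.66) also cross it.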

How the data were processed

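Per the labels' protocols, Trizol-extracted RNA went into TruSeq libraries for HiSeq2000 sequencing. The submitters' processing notes name HTSeq 0.5.4, DESeq and Bowtie2 2.1.0, along with SAMtools 0.1.19 and, for base calls and quality, CASAVA 1.8.2 and FastQC 0.10.0, and give mm10 as the build. The annotation and the strand setting are not given in the sources used here. Whole-number read counts per gene symbol make up the deposited count table. The deposited normalized table held a signal, which is the authors' counts over a single factor for each library (largest deviation 0.0543).

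The main test was edgeR 4.0.16 (R 4.3.3) on the counts. Genes passed filterByExpr (minimum count 10, minimum total 15), libraries were scaled by TMM, and a robust quasi-likelihood model with 8 group means was fitted to 24 libraries (16 residual degrees of freedom). Benjamini-Hochberg adjustment ran over all genes within each of 17 contrasts. Fold changes used a prior count of 0.125. The spread between 3 libraries per group sets the precision. The members, the lists and the rule for named genes (the 10 members, at most 6 further clock genes with the largest called changes, those that share a binding element with a member, and the 3 closest profiles) were chosen with earlier results of these data known. Gene coordinates are from GENCODE vM21, and motif windows from RefSeq.

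Replicate numbers come from the sample titles. Over 9582 genes with at least 5 CPM, same-numbered libraries of a genotype deviated together in all 36 pairs (r = 0.67 to 0.969, against -0.803 to 0.444 in 72 pairs of other numbers), and across genotypes at the same treatment in all 12 pairs (r = 0.276 to 0.895). This pairing comes from the data, and the block within genotype was used for it. Alternatives were RLE scaling, library totals alone, no filter, a filter of 5 CPM in 3 libraries, blocks, the compared groups alone, DESeq2 1.42.0, limma 3.58.1 on log2 of the normalized signal plus 1, and leaving out each library. Leaving out the 3 Rn45s-rich libraries was added after seeing the data. The fits were tested on simulated data in which every library was drawn independently, and the outcome is not reported here. That test held no shared deviation by replicate number, so it does not cover that feature of the data. Some genes of the wider clock list are not reported here by name.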

Additional observations from a re-analysis of the deposited data

Results flagged for a closer look

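Per1, Per2, Cry1 and Cry2 were flagged because their response to a stimulus was called different between KO and WT cells by edgeR's interaction term. Per1 was at 1.10 ± 0.26 (SE, adjusted p = 0.0284) with LPS 0.1 ng/ml, at 1.14 ± 0.26 (adjusted p = 0.0145) with LPS 10 ng/ml and at 1.91 ± 0.26 (adjusted p = 3.54e-05) with FN, as KO minus WT on the log2 scale. Cry1 was at 1.48 ± 0.27 (adjusted p = 0.00327) with LPS 10 ng/ml and at 0.81 ± 0.27 (adjusted p = 0.037) with FN. Cry2 was at 0.94 ± 0.27 (adjusted p = 0.0482) with LPS 10 ng/ml and at 1.07 ± 0.27 (adjusted p = 0.00621) with FN, and Per2 was at 2.07 ± 0.65 (adjusted p = 0.0263) with FN. Of all genes, 2.29%, 5.28% and 23.1% were called in these interactions. Leaving out 1 library left 0 to 1, 1 to 3 and 2 to 4 of the 10. Only Cry1 with LPS 10 ng/ml, and Per1 and Cry2 with FN, held in every such fit. Without the Rn45s-rich libraries, edgeR did not call Per1 (adjusted p = 0.0541) and Cry2 (adjusted p = 0.136) with LPS 10 ng/ml. The oligodendrocyte-lineage markers summed to 153.3 to 253.1 CPM in KO libraries and to 220.2 to 463.6 CPM in WT libraries, ranges that overlap. Their part in the differences of response was not tested.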

How the results depend on the processing

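Counts of clock genes called out of 10 moved by more than 1.5 times in some settings. With the replicate block within genotype they were 2 (KO) and 5 (WT) with LPS 0.1 ng/ml, 8 in KO cells with LPS 10 ng/ml and 8 with FN, 6 for the interaction with LPS 10 ng/ml, 8 for the KO doses and 6 for KO FN against LPS. The replicate block changed no other call of the 10 genes than those given beside the results, and the block over all libraries none between KO and WT cells. With library totals alone they were 5 and 8 between KO and WT cells with LPS 10 ng/ml and FN and 7 for the FN interaction. With DESeq2 they were 2 between KO and WT cells with LPS 0.1 ng/ml and 3 for the WT doses, which RLE also put at 3. With the 5 CPM filter, which drops low genes, 3 were called between KO and WT cells with FN. The compared groups alone gave 3 there, 2 for the FN interaction, 3 for the WT doses and 1 for KO FN against LPS. Without the Rn45s-rich libraries 1 was left for the interaction with LPS 10 ng/ml and 1 for the WT doses. Shares over all genes stand beside the block counts above, but were not set beside the counts of the other settings here. These counts are therefore not read as particular to the clock genes.

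Leaving out 1 library gave 0 to 0 (KO) and 2 to 3 (WT) calls with LPS 0.1 ng/ml, 4 to 7 and 5 to 6 with 10 ng/ml, and 3 to 5 and 5 to 6 with FN. Over all genes it gave 55 to 134 (KO) and 1303 to 2530 (WT) calls with LPS 0.1 ng/ml. With 10 ng/ml these were 4910 to 5723 and 5868 to 6649, and with FN 1558 to 2298 and 5927 to 6755. Between KO and WT cells leaving out 1 library gave 0 to 0 untreated, 1 to 2 and 3 to 4 with the LPS doses and 3 to 5 with FN, and for the interactions 0 to 1, 1 to 3 and 2 to 4. Calls over all genes between KO and WT cells were then 1 to 2, 596 to 1919, 1290 to 2216 and 4378 to 5193. For the interactions they were 180 to 617, 428 to 833 and 2615 to 3128. Between doses leaving out 1 library gave 4 to 6 (KO) and 2 to 6 (WT), and for FN against LPS 1 to 2 and 0 to 0. Over all genes these were 4144 to 4930 (KO) and 2929 to 4329 (WT) between doses. For FN against LPS they were 1479 to 2375 and 0 to 0.

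Among values called in either fit, signs turned only with library totals alone, while small values called in neither also turned under other settings. With LPS 10 ng/ml Arntl was then at -0.40 in KO cells, and Clock at -0.66 and Cry1 at -0.32 in WT cells, and with FN Clock was at -0.58 and Cry1 at -0.11 in WT cells. Csnk1d was at -0.20 (KO) and -0.45 (WT) with LPS 10 ng/ml, -0.34 in WT cells with FN, 0.28 and 0.47 between KO and WT cells with LPS 10 ng/ml and FN, 0.44 for the FN interaction, -0.12 (KO) and -0.32 (WT) between doses and 0.30 for KO FN against LPS, and the FN interaction of Csnk1e was 0.57. The cause of each move was not tested. Per2, Nr1d1 and Dbp rest on down to 6, 3 and 2 counts a library, which limits how small a change could be seen.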
